A study of Mus musculus with 12 samples.

Results

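Goblet cell products are transcripts of the mucus-secreting cells of the intestinal epithelium. The rows of 7 genes (Clca3, Zg16, Tff3, Agr2, Fcgbp, Spdef and Retnlb) were taken by name out of 23329 gene rows, and all 7 were found. The row named Clca3 carries the gene now called Clca1, as the RefSeq synonyms show, and it is called the Clca3 row here. Messenger RNA of the duodenum and the spleen was sequenced from wild type mice, 2 months old, of the inbred laboratory strain C57BL/6J. All mice had received an antibody 24 hours earlier, as 100 ul of a 1 mg/ml solution: either AC H6, which activates the lymphotoxin beta receptor (LTbR), or a control antibody of the same isotype. There were 3 libraries in each of the 4 groups, with 24811659 to 43851006 counts in duodenum and 13874091 to 45847467 in spleen. Whether each library of a group stands for a mouse of its own is not in the labels, so the p-values speak of the spread between libraries, which may be technical.

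Goblet cells arise from crypt stem cells in which Notch signalling is low and the transcription factor Atoh1 is on, and Spdef then drives their maturation. They fill granules with the mucin Muc2, folded with the help of the disulphide isomerase Agr2, and release it with Tff3, Fcgbp, Zg16 and Clca1 as partners in the mucus layer. Retnlb, or RELM beta, is a small secreted protein of goblet cells that is best known from the colon and from worm infection. The duodenum also holds Brunner's glands, whose own mucus is made of Muc6 and the trefoil peptide Tff2. LTbR, a relative of the tumour necrosis factor receptors, signals through NF-kB. Muc2 has no row and was not analysed here.

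The tissue labels were checked with marker lists. The 14 enterocyte markers summed to 37388 to 43626 CPM in the duodenum libraries and to 82.7 to 93.3 CPM in the spleen libraries, where CPM is the count scaled to a common library size. The 9 lymphocyte markers summed to 76.3 to 113 CPM in duodenum and to 2765 to 3492 CPM in spleen. Digestive enzyme genes of pancreatic acinar cells took 0.01%, 2.37% and 0.0397% of the counts in isotype libraries 1, 2 and 3 of the duodenum, and 0.0122%, 0.834% and 9.48% in libraries 1, 2 and 3 under AC H6. Rn45s, a ribosomal RNA precursor, took 7.56% of isotype library 1. With these genes left out of the counts, the same 3 goblet genes named below were called in the duodenum. They include Retnlb, whose call is no test for the reason given below.

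The sequences just upstream of the transcription start are shown for the 3 goblet genes with an entry in the RefSeq promoter table (build GRCm38.p6), Fcgbp, Spdef and Agr2, because motifs of factors known from goblet cells and from NF-kB signalling can be read in them directly. Clca3, Zg16, Tff3 and Retnlb have no entry. Each window covers the 250 bases before the RefSeq start, printed up to the first base of the GENCODE gene, and reads 5′ to 3′ on the gene's strand. Capitals mark matches on either strand to 4 motifs: the E-box CAGCTG, the TATA box TATAAA, the kappa B core (GGG and CC with 5 bases between) and the STAT6 site (TTC and GAA with 4 bases between). The coordinates are chr7:28070986-28071235 on the plus strand for Fcgbp, chr17:27728956-27729201 on the minus strand for Spdef and chr12:35992675-35992906 on the plus strand for Agr2.
Fcgbp: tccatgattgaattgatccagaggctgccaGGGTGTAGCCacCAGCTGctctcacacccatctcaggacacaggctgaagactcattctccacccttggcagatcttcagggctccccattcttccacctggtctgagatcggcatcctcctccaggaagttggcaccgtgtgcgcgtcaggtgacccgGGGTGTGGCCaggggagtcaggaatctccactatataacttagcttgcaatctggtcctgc
Spdef: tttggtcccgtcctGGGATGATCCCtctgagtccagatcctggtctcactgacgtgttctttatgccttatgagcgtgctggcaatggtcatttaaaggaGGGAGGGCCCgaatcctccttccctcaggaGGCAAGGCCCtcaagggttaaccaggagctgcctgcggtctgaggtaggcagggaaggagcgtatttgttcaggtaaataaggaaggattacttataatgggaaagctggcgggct
Agr2: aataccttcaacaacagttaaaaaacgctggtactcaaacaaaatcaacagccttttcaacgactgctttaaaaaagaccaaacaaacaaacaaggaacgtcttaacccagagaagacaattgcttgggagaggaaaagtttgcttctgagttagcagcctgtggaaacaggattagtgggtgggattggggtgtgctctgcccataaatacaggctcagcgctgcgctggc
The E-box stands in the Fcgbp window, 208 bases before the start, and in 13.0% of 32851 promoter windows of that length. The kappa B core stands in the Fcgbp window at 61 and 220 bases before the start and in the Spdef window at 120, 150, 235 and 236 bases, of which the last pair overlap. It is a loose pattern that 45.8% of all promoter windows hold. The TATA box, in 12.4% of windows, and the STAT6 site, in 5.85%, have no match in the 3 windows, and the Agr2 window holds none of the 4 motifs. These matches describe letters and show no binding.

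In the duodenum under the isotype antibody, the goblet genes differed widely in level. Per kilobase of the longest coding transcript, which allows levels of different genes to be set side by side, Zg16, a lectin that binds bacteria in mucus, stood highest at 2535 ± 304 CPM per kb (SD, n = 3). Tff3, a trefoil peptide of epithelial repair, followed with 1883 ± 16.2 and Agr2 with 833 ± 178. Fcgbp, a large mucus protein with von Willebrand domains, had 523 ± 8.5 and the Clca3 row, a secreted metalloprotease of the mucus, 510 ± 15.8 CPM per kb. The libraries of Fcgbp and Clca3 overlapped, so that their order is not settled, while no other neighbours in this order overlapped. Spdef stood at 34.0 ± 8.56 and Retnlb lowest at 1.11 ± 0.27 CPM per kb. Under AC H6 the order of the means was the same, with the libraries of Zg16 and Tff3 now overlapping and those of Fcgbp and Clca3 apart.

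**Figure D1:**
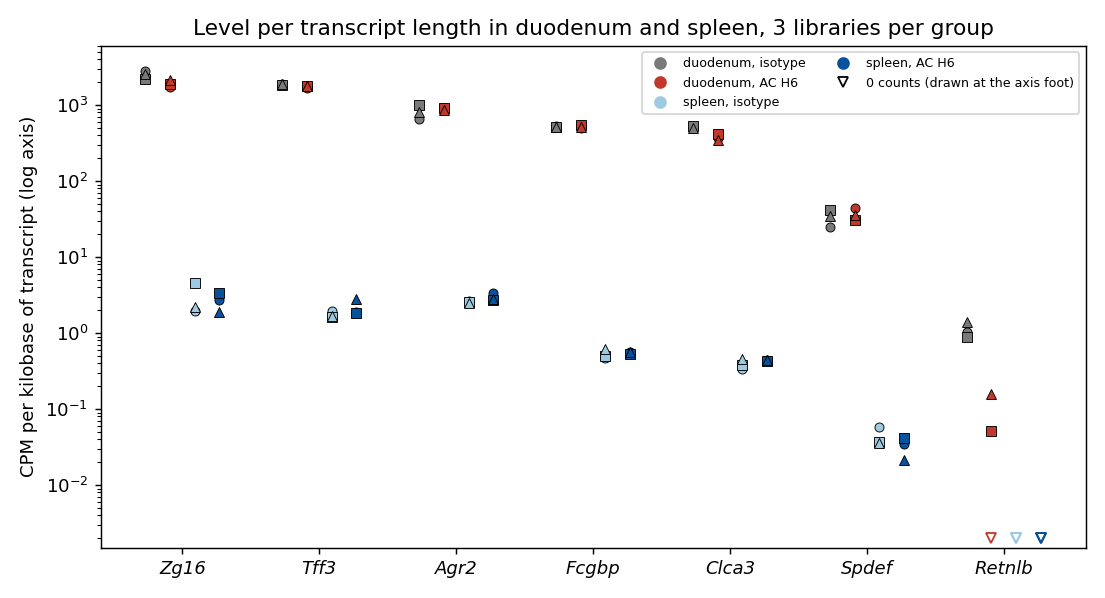
Level of each goblet gene per kilobase of transcript (CPM per kb, log axis) in each of the 12 libraries, by tissue and antibody, with open triangles at the foot of the axis for libraries with 0 counts. The duodenum libraries of 6 genes lie far above the spleen libraries, and Retnlb had 0 counts in all 6 spleen libraries.

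The spleen gives the background for these genes. The comparison of both tissues under isotype found Clca3, Tff3, Fcgbp, Zg16 and Agr2 higher in duodenum (quasi-likelihood F-test of edgeR, adjusted after Benjamini and Hochberg), where 42.2% of 16029 genes tested were called higher and 86% were called in either direction. The log2 difference was 10.30 ± 0.15 for Clca3 (standard error, edgeR adjusted p = 4.07e-10), 10.07 ± 0.10 for Tff3 and 9.93 ± 0.18 for Fcgbp. Zg16 differed by 9.68 ± 0.37 and Agr2 by 8.31 ± 0.19. Spdef and Retnlb passed the filter on low counts only through the duodenum libraries, where they are high, so that their calls in this comparison are no test. Spdef had 2, 3 and 2 counts in the spleen isotype libraries and a fitted log2 difference of 9.59. Retnlb had no count in spleen, and its duodenal level under isotype was at least 22.9-fold higher than a floor of 3 counts over the 3 spleen isotype libraries.

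Set as a percentage of the duodenal level, the spleen level of the other 6 goblet genes ran from 0.0771% for Clca3 to 0.31% for Agr2, with a median of 0.108%. Enterocyte markers in the same libraries had a median of 0.117% over 14 genes, Paneth cell markers 0.0981% over 11 and enteroendocrine markers 0.168% over 8. Only genes with a mean duodenal level of at least 10 CPM under isotype entered these figures. The highest single marker stood at 5.99%, 33.7% and 1.81% in these lists, in that order. By the medians, the goblet genes thus sat in spleen at about the same small share of their duodenal level as genes of other gut epithelial cells. In spleen isotype libraries 1, 2 and 3, Clca3 stood at 1.24, 1.40 and 1.67 CPM, Agr2 at 2.09, 2.00 and 1.98 and Tff3 at 0.961, 0.809 and 0.818. Spdef had 15 counts over all 6 spleen libraries.

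The main question was whether 24 hours of LTbR agonism changed the goblet genes of the duodenum. Clca3 and Zg16 fell by 25.8% and 24.4% of their mean level, and Retnlb, already near the limit of detection, fell to almost nothing. Fcgbp, Tff3, Agr2 and Spdef did not pass the test. The counts were thus 0 higher, 3 lower and 4 not called of 7. The 3 include Retnlb, whose call is no test. It passed the filter on low counts only through the isotype libraries, where it is high. A stricter filter removed it and left 6 goblet genes tested, of which 2, Clca3 and Zg16, were called. Of 15667 genes in the main fit, 18.5% were called higher, 16.1% lower and 34.6% in all. The share of goblet genes called was near that background, and the count is not a result about the goblet genes as a group. The AC H6 libraries all lay below the isotype libraries for 4 of the 7, as they did for 25.6% of all genes tested. The median log2 change of the 7 was -0.089, beside 0.0083 over all genes tested. In whole tissue, fewer goblet cells and less RNA per goblet cell cannot be told apart.

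**Figure D2:**
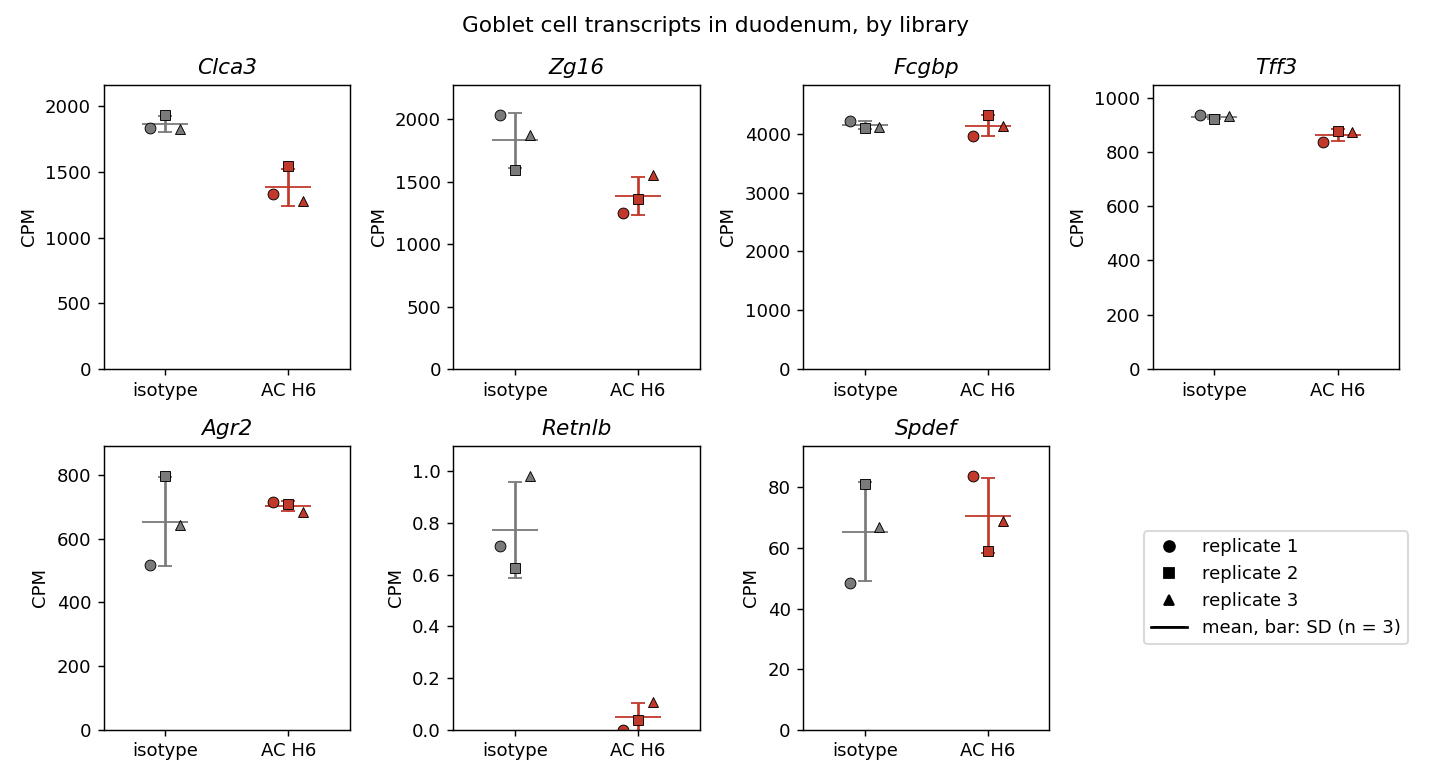
CPM of the 7 goblet genes in the 6 duodenum libraries, with 1 panel per gene, each y axis starting at 0, the marker shape giving the replicate number, and the mean and SD of each group as lines. The 3 AC H6 libraries lie below the 3 isotype libraries for Clca3, Zg16, Tff3 and Retnlb, while the groups overlap for Fcgbp, Agr2 and Spdef.

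Clca3 (now Clca1, chromosome 3, 145003817 to 145032776, minus strand, GRCm38) encodes a chloride channel accessory protein that is not itself a channel but is secreted and cleaves Muc2. It had 1837, 1932 and 1828 CPM in isotype libraries 1, 2 and 3, and 1334, 1544 and 1277 CPM in AC H6 libraries 1, 2 and 3. All AC H6 libraries were lower than all isotype libraries, and within each group the libraries were close. The mean went from 1866 ± 57.6 to 1385 ± 140 CPM, which is a log2 change of -0.41 ± 0.08 (edgeR adjusted p = 0.00421). The call held in all 16 alternative analyses, with values from -0.50 to -0.36. None of the 50-base stretches of its transcript occurs in another gene.

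Zg16 (chromosome 7, 127050156 to 127087328, minus strand) had 2031, 1596 and 1872 CPM under isotype and 1249, 1360 and 1550 CPM under AC H6. The groups did not overlap, but isotype library 2 and AC H6 library 3 lay close together. The mean went from 1833 ± 220 to 1386 ± 152 CPM, which is a log2 change of -0.39 ± 0.11 (edgeR adjusted p = 0.0247). This call was lost in 6 of 16 alternatives, with adjusted p up to 0.205 and values from -0.48 to -0.25. Leaving out isotype library 1 or 3, or AC H6 library 1 or 2, was enough to lose it, with values of -0.30, -0.37, -0.31 and -0.38. Other annotated genes overlap the span of Zg16 on the opposite strand, and the library kit does not mark strand.

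Retnlb (chromosome 16, 48816856 to 48818892, plus strand) was scarce. It had 14, 18 and 25 counts in the isotype libraries, and 0, 1 and 4 counts in the AC H6 libraries, or 57 against 5 in all. No AC H6 library reached the lowest isotype library. In CPM, the pooled isotype level was 15.1 times the AC H6 level, which describes the counts and is no test. The fitted log2 change was -3.79 ± 0.56, and leaving out single libraries moved it between -5.19 and -3.23. The gene passed the filter on low counts only through the isotype libraries, where it is high, so its call is no test. A stricter filter removed it.

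Tff3 (chromosome 17, 31125306 to 31129646, minus strand) varied little within groups. It had 934, 919 and 932 CPM under isotype and 838, 876 and 873 CPM under AC H6. The groups did not overlap, yet the log2 change of -0.09 ± 0.05 did not pass the test (edgeR adjusted p = 0.204). Fcgbp (chromosome 7, 28071236 to 28120862, plus strand), the most abundant of the 7 in counts, had 4222, 4098 and 4115 CPM under isotype and 3957, 4316 and 4134 CPM under AC H6. Its groups overlapped fully, and the log2 difference was 0.014 ± 0.049 (edgeR adjusted p = 0.848). Of its 50-base transcript stretches, 8.55% also occur in the gene 9530053A07Rik. That gene was looked up after the values were seen and had 167 ± 3.19 CPM under isotype and 182 ± 9.32 under AC H6.

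Agr2 varied more between the isotype libraries than between the groups, and Spdef more between the libraries of either group. Agr2 (chromosome 12, 35992907 to 36004087, plus strand) had 519, 797 and 644 CPM under isotype and 716, 708 and 685 under AC H6, so that all AC H6 libraries lay inside the isotype range. Its log2 difference was 0.13 ± 0.13 (edgeR adjusted p = 0.47). It became -0.0063 without isotype library 1, and 0.29 with an adjusted p of 0.0471 without isotype library 2. Spdef (chromosome 17, 27714352 to 27728955, minus strand) had 48.3, 81.1 and 66.8 CPM under isotype and 83.7, 59.1 and 69.1 under AC H6. Its groups overlapped, with a log2 difference of 0.13 ± 0.18 (edgeR adjusted p = 0.606). Both genes were lowest in isotype library 1 and highest among isotype libraries in library 2, and Zg16 ran the other way in that group.

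**Figure D3:**
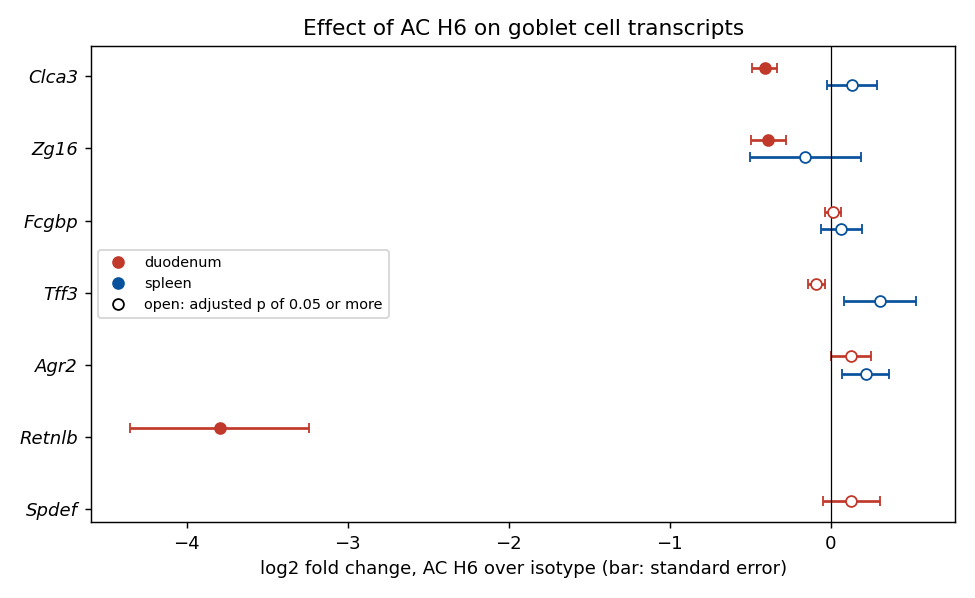
Log2 fold change of AC H6 over isotype for each goblet gene (x axis), in duodenum and in spleen, with bars for the standard error and filled points where the adjusted p was under 0.05. Only the duodenum points of Clca3, Zg16 and Retnlb are filled, and the Retnlb call is no test. Spdef and Retnlb have no spleen point because they did not pass the filter there.

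In spleen the same antibody left no call among the 5 goblet genes tested (edgeR, background 3.98% of 15270 genes), none had an unadjusted p under 0.05, and DESeq2 and limma-voom gave no call either. Log2 differences were 0.13 ± 0.16 for Clca3, -0.16 ± 0.35 for Zg16, 0.31 ± 0.22 for Tff3, 0.22 ± 0.15 for Agr2 and 0.066 ± 0.129 for Fcgbp, from 75 to 375 counts per gene over the isotype libraries. The difference of the antibody's effect between the tissues was tested on all 12 libraries, and Clca3 was the single goblet gene called (background 20% of 16655 genes). Its effect in duodenum was lower than that in spleen by a log2 of -0.56 ± 0.14 (edgeR adjusted p = 0.0145). Without spleen isotype library 1 this value was -0.44 with an adjusted p of 0.0585, and with limma-voom it was -0.57 with an adjusted p of 0.174. For Zg16 the difference between the tissues was -0.25 ± 0.37 (edgeR adjusted p = 0.683), and for Retnlb it could not be estimated because spleen had no counts.

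The Clca3 row belongs to a run of 7 Clca genes on the minus strand of chromosome 3, between 144729677 and 145099443, and its neighbours moved differently. In the deposited tables these rows carry older names, and the current names follow from RefSeq synonyms. The row Clca2 (now Clca3a2) rose from 6.50, 8.34 and 9.66 CPM in isotype libraries 1, 2 and 3 to 45.9, 52.0 and 53.0 CPM in AC H6 libraries 1, 2 and 3. That is a log2 change of 2.63 ± 0.12 (edgeR adjusted p = 5.53e-06) with groups far apart. Clca4 (now Clca3b) rose from 219, 305 and 270 to 666, 704 and 889 CPM, which is a log2 change of 1.53 ± 0.14. Clca1 (now Clca3a1) rose from 10.2, 13.2 and 11.6 to 20.1, 21.8 and 22.1 CPM, which is a log2 change of 0.88 ± 0.09 (edgeR adjusted p = 3.53e-04).

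The other 3 rows of the cluster were not called. Clca6 (now Clca4a) had a log2 difference of 0.17 ± 0.25 and Clca5 (now Clca2) one of -0.07 ± 0.20. AI747448 (now Clca4b), named after its values were seen, went from 901 ± 120 to 1091 ± 165 CPM, a log2 difference of 0.29 ± 0.13 (edgeR adjusted p = 0.112). The cluster thus held 3 rows that rose, the goblet row that fell and 3 rows that were not called, and the difference between rows was not tested. Of the 50-base transcript stretches of the rows that rose, 26.5% for Clca2, 25.8% for Clca1 and 5.98% for Clca4 also occur in other genes, chiefly in each other. The shares were 37.1% for Clca6 and 24.8% for AI747448, so the values of these 5 rows are less certain than that of Clca3. None of the 6 was called in spleen, where Clca1 averaged 145 CPM under isotype.

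**Figure D4:**
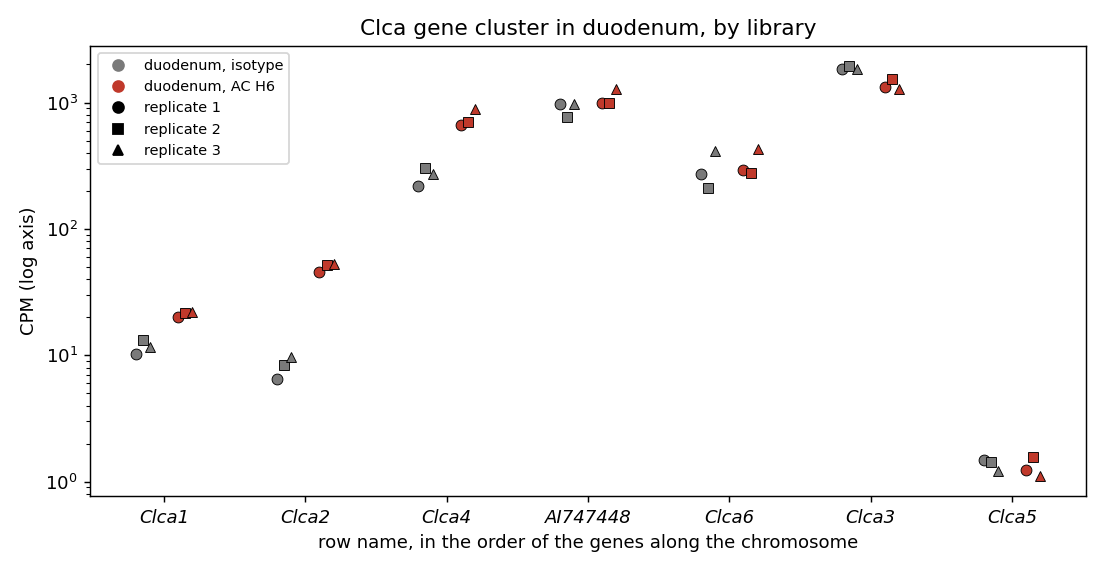
CPM (log axis) of the 7 Clca rows in the 6 duodenum libraries, in the order of the genes along chromosome 3, with colour for the antibody and marker shape for the replicate number. The AC H6 points of Clca1, Clca2 and Clca4 lie above the isotype points, and those of Clca3 lie below.

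Relatives of the other goblet genes gave a mixed picture. Tff2, the trefoil peptide of Brunner's glands, went from 6465 ± 1935 to 10730 ± 2272 CPM, which is a log2 change of 0.75 ± 0.22 (edgeR adjusted p = 0.03), with AC H6 library 3 at 8118 below isotype library 2 at 8148. Its call was lost without isotype library 3 and without AC H6 library 1 or 2 (values 0.80, 0.68 and 0.64). Tff1, a gastric trefoil peptide, had a log2 difference of 1.32 ± 1.18 and ranged from 1.63 to 540 CPM over the libraries. Retnlg, a resistin-like gene of myeloid cells that lies near Retnlb, fell by 0.59 ± 0.16 on the log2 scale (edgeR adjusted p = 0.0248). Retnla and Agr3 differed by -0.04 ± 0.39 and 0.08 ± 0.20 and were not called, and Retn was not tested. Among the 10 relatives tested, Clca rows included, 4 rose and 1 fell, where 18.5% of all genes were called higher and 16.1% lower. The fall of Retnlg was lost without isotype library 1 or 3, without AC H6 library 2 or 3, and with a gland score described below.

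Of 11 mucin genes looked for, 7 had a row, and 1 rose and 1 fell, where 18.5% of all genes were called higher and 16.1% lower. Muc13, a transmembrane mucin of the brush border, had 3484, 4259 and 3541 CPM under isotype and 2580, 3057 and 3134 under AC H6. The groups did not overlap and the log2 change was -0.34 ± 0.09 (edgeR adjusted p = 0.022), but the call was lost without isotype library 2 (-0.25) and without AC H6 library 1 (-0.26) or 3 (-0.40), and 1 fit of all 12 libraries gave -0.37 with an adjusted p of 0.0755. Muc20, a small membrane mucin, rose from 8.99 ± 0.791 to 14.4 ± 2.43 CPM, which is a log2 change of 0.69 ± 0.14 (edgeR adjusted p = 0.00558). It overlaps Muc4 on the opposite strand, and the library kit does not mark strand. Muc6, the gland mucin, went from 6411 ± 1823 to 9505 ± 2345 CPM without passing the test (log2 difference 0.59 ± 0.23, edgeR adjusted p = 0.0751). Log2 differences of Muc1, Muc4, Muc5ac and Muc5b were 0.77, 0.15, 0.71 and 0.75, and none was called. Without isotype library 2, Muc1 passed at 1.09 with an adjusted p of 0.0477 and 3 mucins were called higher. Muc6 passed with the replicate number as a block (0.60, adjusted p = 0.0462 by edgeR) and in the fit of 12 libraries (0.57, adjusted p = 0.0497 by edgeR).

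Gland and stomach genes varied widely between the duodenum libraries, and their part in the goblet gene values was not tested. The 11 Brunner gland and gastric surface markers summed to 11025, 20760 and 18550 CPM in isotype libraries 1, 2 and 3, and to 28609, 32294 and 19659 CPM in AC H6 libraries 1, 2 and 3. Isotype library 1 was the lowest of all, and its 4 gastric surface genes (Tff1, Muc5ac, Gkn1 and Gkn2) summed to 3.76 CPM, against 488 to 2334 CPM in the other 5 libraries. Within the list 2 genes were called higher (Gkn3 and Tff2) and 1 lower (Cym) of 10 tested, beside 18.5% and 16.1% of all genes. None was called higher without isotype library 3 or AC H6 library 1 or 2. Agr2 and Spdef were lowest in isotype library 1. A fit with the mean log2 level of the list as a covariate was added after the data were seen. The summed markers were higher in AC H6 libraries 1 and 2 than in any isotype library, so this fit cannot tell gland content from the antibody. In it Clca3 was still called, as was Retnlb, whose call is no test. Zg16 then changed by -0.25 ± 0.09 with an adjusted p of 0.075, and Agr2 and Spdef by -0.038 and -0.081.

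**Figure D5:**
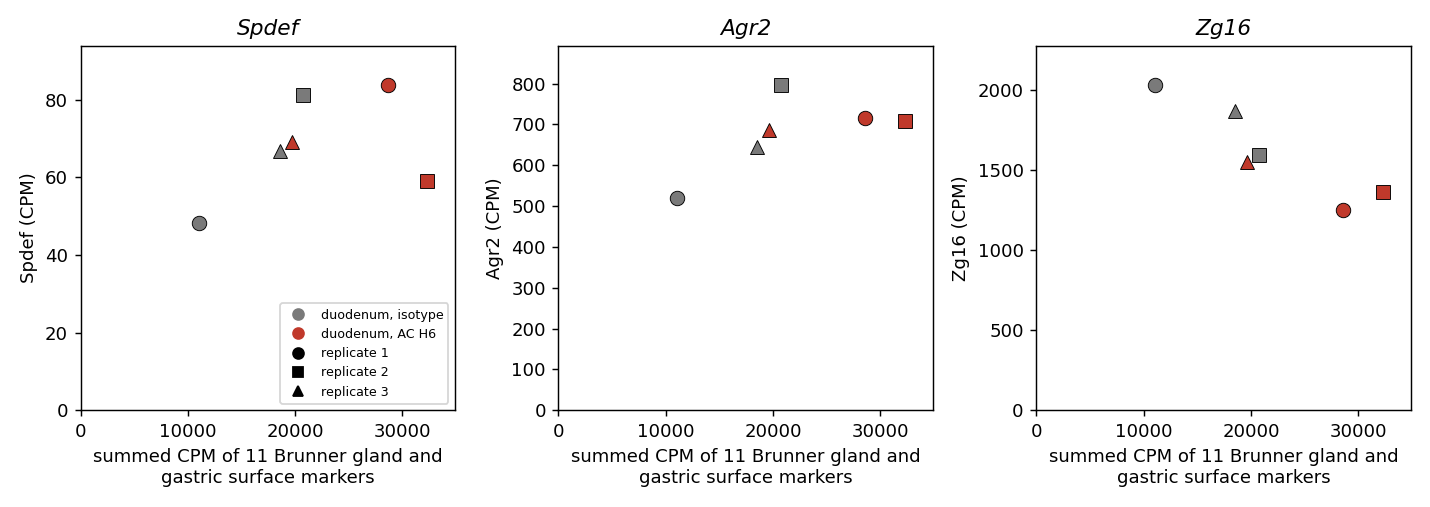
CPM of Spdef, Agr2 and Zg16 (y axes, starting at 0) against the summed CPM of the 11 Brunner gland and gastric surface markers (x axis) in the 6 duodenum libraries, with colour for the antibody and marker shape for the replicate number. Isotype library 1, at 11025 CPM of gland markers, is lowest in Spdef and Agr2 and highest in Zg16.

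Further goblet genes shared no single direction. Of 17 tested, 5 fell, 2 rose and 10 were not called, with a median log2 change of -0.20. Over all genes, 16.1% were called lower, 18.5% higher and 34.6% in all. The share called was near that background, so the count is not a result about these genes as a group. Scin, an actin-severing protein of secretory cells, fell from 121 ± 30.5 to 62.4 ± 6.36 CPM (log2 change -0.94 ± 0.18, adjusted p = 0.00504 by edgeR). Ang4, an antimicrobial ribonuclease of goblet and Paneth cells, had 116, 141 and 132 CPM under isotype and 61.2, 74.9 and 95.3 under AC H6, with groups apart and a log2 change of -0.73 ± 0.15. Capn9, a calpain of the gut lining, fell from 22.3 ± 0.212 to 14.4 ± 1.22 CPM (log2 -0.61 ± 0.07). Rep15 and Nlrp6, the latter a sensor that governs goblet cell secretion, fell by 0.47 and 0.25 on the log2 scale. Guca2a, which encodes guanylin, a peptide that drives fluid secretion, rose from 22.1 ± 2.77 to 96.4 ± 12 CPM (log2 change 2.14 ± 0.12, adjusted p = 1.21e-05 by edgeR). The potassium channel gene Kcnma1 rose by 0.41, although the rises numbered 1 without isotype library 1 or 2 or AC H6 library 1, and with the gland score. Spink4, a protease inhibitor of goblet granules named outside the rule, missed the threshold at -0.31 ± 0.11 (edgeR adjusted p = 0.0547) and passed it in 9 of 16 alternatives.

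Among transcription factors of the secretory lineage some rose and some fell. Of 12 tested, 5 rose, 1 fell and 6 were not called, with a median log2 change of 0.30, where 18.5% of all genes were called higher and 16.1% lower. Klf4, needed for goblet cell differentiation, fell from 369 ± 10.5 to 282 ± 12.3 CPM (log2 change -0.37 ± 0.06, adjusted p = 0.00217 by edgeR). Foxa1, a pioneer factor of secretory cells, rose by 0.77 ± 0.15, Neurog3, the factor of enteroendocrine precursors, by 0.71 ± 0.14 and Foxa2 by 0.46 ± 0.13. Creb3l1, a factor of the secretory apparatus, rose by 0.54 and Sox9, of the crypt base, by 0.40. Only 2 of the 12 rose without isotype library 1 or 3, without AC H6 library 1 or 2, or with the gland score, while 2 fell without isotype library 2 or AC H6 library 3. Atoh1, named outside the rule, went from 11.5 ± 1.41 to 8.52 ± 1.33 CPM, and the groups did not overlap. Its log2 difference was -0.41 ± 0.14 with an adjusted p of 0.0525, and it passed the threshold in 8 of 16 alternatives.

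In the Notch pathway 3 of 9 genes tested rose and 1 fell, where 18.5% of all genes were called higher, 16.1% lower and 34.6% in all. In 1 fit of all 12 libraries, and with an acinar score as covariate, 2 fell. Nrarp, a feedback inhibitor and readout of Notch signalling, fell from 30.3 ± 3.92 to 16.7 ± 1.2 CPM (log2 change -0.84 ± 0.10, adjusted p = 6.58e-04 by edgeR). The receptor gene Notch2 rose by 0.43 ± 0.06, the ligand gene Dll1 by 0.26 ± 0.06 and Rbpj, the DNA-binding partner of Notch, by 0.19 ± 0.06, and without AC H6 library 3 only 1 of them rose. Hes1, the best known Notch target of the crypt, differed by 0.05 ± 0.13. It was named after its values were seen.

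Enzymes that build mucin sugars and proteins that fold secreted products were largely not called. Over all genes, 18.5% were called higher and 16.1% lower. Of 15 glycosylation genes tested, Gcnt1 (0.71) and Galnt12 (0.31) rose, Gcnt4 fell by 0.39 and 12 were not called. Of 18 folding genes, Pdia5 (0.78) and Calr (0.24) rose, P4hb fell by 0.25 and 15 were not called. Leaving out single libraries gave 1 to 4 rises among the glycosylation genes, with 4 without isotype library 2 or AC H6 library 3. No glycosylation gene fell without isotype library 1 or 3, without AC H6 library 1 or 2, or with the gland score. Among the folding genes it gave 1 to 5 rises, with 5 without isotype library 3 and 1 without any of the other 5, and none fell without AC H6 library 3. The summed level of the folding list was 6910 to 10052 CPM under isotype and 6860 to 7635 CPM under AC H6, so the groups overlapped.

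Among genes of cytokine routes known to act on goblet cells, some receptors and effectors were called. Over all genes, 18.5% were called higher, 16.1% lower and 34.6% in all. Of 9 genes of the type 2 cytokine axis tested, 3 were called higher and none lower, a share near that background. With DESeq2, a replicate block or an acinar score, or without AC H6 library 3, 1 was called lower. Il1rl1, the interleukin 33 receptor, rose by 1.25 ± 0.19 and Il4ra, the interleukin 4 and 13 receptor chain, by 0.46 ± 0.10. The other call was Chi3l3, a chitinase-like protein of myeloid cells, which had 4, 5 and 4 counts in the isotype libraries and 92, 62 and 103 in the AC H6 libraries, or 0.178 ± 0.0234 and 2.60 ± 0.309 CPM. It passed the filter on low counts only through the AC H6 libraries, where it is high, so its call is no test. The cytokine genes Il4, Il5 and Il13 themselves had at most 7 counts in any duodenum library and were not tested. Of 8 genes of the interleukin 22 axis, 3 rose and 1 fell. The cytokine gene Il22 itself, named outside the rule, had 0 counts in isotype libraries 1, 2 and 3 and in AC H6 library 2. Il22ra1, the epithelial receptor chain, fell from 169 ± 17.7 to 49.96 ± 9.07 CPM (log2 change -1.74 ± 0.13, adjusted p = 7.05e-05 by edgeR). Reg3g, an antibacterial lectin induced by that receptor, rose from 139 ± 63.7 to 1001 ± 355 CPM (log2 2.87 ± 0.35), Reg3b by 1.79 and the soluble receptor Il22ra2 by 1.46.

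Markers of other epithelial cell types are set here beside the shares over all genes, 18.5% called higher and 16.1% called lower. Enterocyte markers fell in 8 of 14 (median log2 change -0.24), among them Sis, sucrase-isomaltase, by 0.66 and Fabp1, a fatty acid carrier, by 0.61, while Apoa1 and Apoa4 rose. The rises numbered 1 without isotype library 1 or 3 or AC H6 library 1 or 2, and 0 in 1 fit of all 12 libraries. Without AC H6 library 3, 5 fell and 0 rose. Their summed level was 42440 to 43626 CPM under isotype and 37388 to 39319 under AC H6. Of 14 Paneth cell markers 3 rose (Mmp7, Habp2 and Nupr1) and 2 fell (Ang4 and Itln1), while DESeq2 and limma-voom each called 4 lower and leaving out single libraries gave 1 to 3 higher and 1 to 4 lower. In all 5 of the 14 were called, near the 34.6% of all genes. Enteroendocrine markers rose in 5 of 11 and none fell, with Chgb up by 0.47 ± 0.06, while 3 of 8 tuft cell markers were called, all higher, which is also near that share. Of 8 stem cell markers 4 rose and 1, Rnf43, fell. The summed goblet genes stood at 9424 to 9592 CPM under isotype and 8177 to 8863 CPM under AC H6, and the part that cell composition has in this was not tested. In these sums Clca3 went from a mean of 1866 to 1385 CPM and Zg16 from 1833 to 1386. Fcgbp, the largest part, had 4145 and 4136, Tff3 928 and 862 and Agr2 653 and 703.

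The 8 genes most like the mean of the goblet genes were sought over the 6 duodenum libraries. The measure was Pearson's r between each gene's log2 CPM and the mean standardised level of the 7. All 7 had equal weight in that mean, the scarce Retnlb included, and they did not move together. Zg16 was highest in isotype library 1, where Agr2 and Spdef were lowest. A gene like the mean is therefore not like each goblet gene. Among 10465 candidates these were Trpa1 (r = 0.999), Ythdf3, Mat2a, Fam83f, Prdm16, Btnl4, Nfx1 and Trim26 (r = 0.992). Trpa1, an irritant-sensing ion channel gene, went from 10.2 ± 0.572 to 8.30 ± 0.547 CPM, and within each group library 1 was lowest and library 2 highest. Mat2a, which makes the methyl donor S-adenosylmethionine, went from 177 ± 10.8 to 143 ± 10.4 CPM. Btnl4 belongs to the butyrophilin-like genes of gut epithelium and went from 113 ± 5.42 to 89.8 ± 7.22 CPM. With 6 libraries that share tissue and treatment, these correlations are a description, and none of the 8 is a gene of the goblet lists.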

How the data were processed

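Libraries were made from Trizol extracts with an unstranded Illumina TruSeq RNA kit, per the labels' protocols, which mention brain although the labels name duodenum and spleen. The submitters' processing notes name bcl2fastq 2.19, Trimmomatic, STAR 2.3, edgeR and the build mm10. Which tool and annotation gave the counts is not given in the sources used here. What the authors deposited are whole-number read counts per gene, in 1 table for each of 12 libraries. Reads with several matches were kept, per the file headers. No other value was used.

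From these counts, edgeR 4.0.16 in R 4.3.3 gave TMM-scaled CPM and quasi-likelihood F-tests after filterByExpr (minimum count of 10), with Benjamini-Hochberg adjustment over all genes tested and calls at an adjusted p under 0.05. The antibody was tested within the 6 libraries of a tissue, the tissues were compared on the 6 isotype libraries, and the interaction was fitted on 12. The standard error is the log2 change divided by the square root of F, which is unstable near 0. Fold changes of genes with few counts depend on a prior count. Gene positions and transcript lengths are those of GENCODE M21 on GRCm38, and all 7 goblet genes were matched. Tests were tried on simulated data first.

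Replicate numbers come from the titles. In the comparison of tissues, same-numbered libraries deviated together (correlations 0.186, 0.346 and 0.108), and with the number as a block Clca3, Tff3, Fcgbp, Zg16 and Agr2 were still called. Within a tissue the numbers did not pair the libraries. No libraries of a group agreed within sampling noise.

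The goblet genes, the marker lists and the comparisons were chosen with earlier results of these data known. Genes named are the 7, every mucin and family relative with a row, up to 4 genes of smallest p from each other list, genes in counts of 5 or fewer, and the 8 most alike with a mean log2 CPM of at least 3. The text says where a gene falls outside this rule.

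The following were tried as alternatives: the size factors of DESeq2 in edgeR, no filter, a filter asking for 10 counts in each library of some group and a mean log2 CPM of 1, limma-voom (limma 3.58.1), DESeq2 1.42.0, counts without haemoglobin, Rn45s, Lars2 and acinar genes, 1 fit of all 12 libraries, an acinar score, a replicate block, AC H6 in place of isotype libraries in the comparison of tissues, and each library left out in turn. A Brunner gland and gastric score was added after the data were seen.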

Additional observations from a re-analysis of the deposited data

Results flagged for a closer look

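For Clca3 the effect of AC H6 differed between the tissues by a test of that difference itself, though not in every analysis. The interaction of tissue and treatment was -0.56 ± 0.14 on the log2 scale (adjusted p = 0.0145, quasi-likelihood F-test of edgeR on 12 libraries). It was -0.57 with an adjusted p of 0.174 with limma-voom, and -0.44 with an edgeR adjusted p of 0.0585 without spleen isotype library 1. In duodenum all 3 AC H6 libraries were below all 3 isotype libraries, while in spleen the gene stood at 1.44 ± 0.215 CPM under isotype and 1.59 ± 0.00938 CPM under AC H6 (SD, n = 3). That spleen level is 0.0771% of the duodenal level under isotype. The median share was 0.117% for enterocyte, 0.0981% for Paneth cell and 0.168% for enteroendocrine markers.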

How the results depend on the processing

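In duodenum 2 to 4 of the 7 goblet genes were called under the alternatives, beside 3 as reported. Clca3 was called in all 16, Retnlb in all 15 that tested it, and Zg16 in 10. The Retnlb call is no test, because the gene entered the main fit only through the isotype libraries, where it is high. Some uncalled differences changed sign. In duodenum, with the gland score, Agr2 was -0.038 and Spdef -0.081, and in 1 fit of all 12 libraries Fcgbp was -0.0089. Leaving out single libraries gave -0.0063 to 0.29 for Agr2, -0.024 to 0.049 for Fcgbp and -0.038 to 0.31 for Spdef. In spleen it gave -0.36 to 0.38 for Zg16 and -0.0025 to 0.19 for Fcgbp, and in the interaction -0.25 to 0.050 for Agr2 and -0.18 to 0.051 for Fcgbp. The interaction held 0 to 1 called goblet genes when single libraries were left out, with 0 only without spleen isotype library 1, and with limma-voom Clca3 was not called and the 1 call was Retnlb, which is no test because spleen had no counts of it. The cause was not tested. With the replicate number as a block, the same 3 goblet genes were called in duodenum, 0 in spleen and 1 in the interaction. Same-numbered libraries correlated at 0.401, 0.243 and -0.2 in duodenum and at 0.265, -0.13 and -0.03 in spleen, so not every library went best with its own number. Over all spleen genes the calls went from 608 to 1 with the block, to 1356 with DESeq2, to 1390 in 1 fit of all 12 libraries and to 14 to 1132 without single libraries. Depth limits Retnlb, with 62 counts in all, and the goblet genes in spleen.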
